A study of Mus musculus with 4 samples.

Results

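Tnrc18 and Bahcc1 are paralogous mouse genes for very large nuclear proteins that each carry a bromo-adjacent homology (BAH) domain. The rows of both genes, chosen by symbol with their levels in these libraries already known, were 2 of the 24100 genes in the count tables. Both passed the low-count filter, which left 14636 genes. The comparison set RNA bound to captured ribosomes (immunopurified, IP) against the fraction called Input, and asked which transcripts were higher or lower on the captured ribosomes.

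A BAH domain is a fold found in chromatin proteins that binds nucleosomes or modified histone tails. The human BAH protein BAHCC1 is known as a reader of H3K27me3, the histone mark laid down by Polycomb repressive complex 2, and the human protein TNRC18 as a reader of H3K9me3, a mark of silent chromatin and of endogenous retroviruses. Both are known to work with corepressors that carry histone deacetylases. Tnrc18 owes its name to trinucleotide repeats.

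The tissue was the prefrontal cortex of untreated adult males of the Crh-IRES-Cre line. In that line the locus of Crh, which encodes the stress peptide corticotropin-releasing hormone, also drives Cre recombinase. The IP group held 3 libraries and the Input group 1 library, each made from 5 pooled males. In translating ribosome affinity purification (TRAP), ribosomes that carry an EGFP tag are pulled from homogenized tissue by antibodies against EGFP, and the bound RNA is sequenced. The labels name the Cre line but not the allele or virus that carries the tag, and they do not say whether the 4 libraries came from separate animals. Any p-value here thus reflects how far these libraries vary, and some of that variation may be technical. The total counts were 23548375, 10031072 and 12150980 in IP 1, IP 2 and IP 3, and 14474529 in the Input. Levels are CPM (counts scaled to a common library size), adjusted by trimmed mean of M values (TMM) factors.

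The capture was checked with 12 markers of Crh and Vip interneurons, of which 11 rose in IP and all lay above the Input in all 3 IP libraries. Over all genes tested, 0.41% rose and 0.0478% fell in IP. All 3 IP libraries lay above the Input for 19.7% of genes tested and below it for 24.1%. Crh was at 501, 174 and 193 CPM in IP 1, IP 2 and IP 3, against 1.32 CPM in the Input. The summed level of these markers was 6858 to 10401 CPM in the IP libraries and 543 CPM in the Input, and was highest in IP 1. Of 12 excitatory neuron markers 2 fell, and 9 were under their Input level in each IP library, with a median log2 fold of -1.09. Their sums were 3521 to 6520 CPM in IP and 5716 CPM in the Input, and without Camk2a, the most abundant of them, 931 to 1544 CPM in IP and 2814 CPM in the Input. No astrocyte, oligodendrocyte, microglial or vascular marker was called by edgeR, but 2 vascular markers were called by DESeq2 and 3 by edgeR without IP 1. DESeq2 called 1.38% of the genes it tested. Summed levels in IP and in the Input were 1661 to 2862 and 2711 CPM for 10 astrocyte markers. They were 396 to 663 and 869 CPM for 12 oligodendrocyte and precursor markers, and 23.4 to 35.5 and 99.2 CPM for 10 microglial markers. Among astrocyte markers, 9 of the 10 were likewise under their Input level in each IP library (median log2 fold -1.0), and without Slc1a2, the most abundant, they summed to 280 to 406 CPM in IP and 589 CPM in the Input. The same position held for 7 of the oligodendrocyte and precursor markers (median -0.93) and 9 of the microglial markers (median -2.78). In contrast, 3 of the oligodendrocyte and precursor markers lay above the Input in all 3 IP libraries. These were the precursor genes Cspg4 (log2 fold 2.95) and Pdgfra (1.19) and the myelin gene Mag (1.0). The microglial genes C1qa, Tmem119, Trem2 and Tyrobp each had 0 counts in at least 1 IP library. The 10 vascular markers summed to 240, 784 and 334 CPM in IP 1, IP 2 and IP 3, against 98.4 CPM in the Input, and 7 of them lay above the Input in all 3 IP libraries (median 2.45). The part of these other cell types in the levels of Tnrc18 and Bahcc1 was not tested.

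Tnrc18 (Entrez 231861) lies on the minus strand of chromosome 5, at 142724661 to 142817662 in GRCm38, and Bahcc1 (Entrez 268515) on the plus strand of chromosome 11, at 120232947 to 120292296. Both are protein coding, with 12266 and 11118 exon bases over their annotated transcripts. The longest annotated coding parts were 8019 bases for Tnrc18, whose annotated start is incomplete, and 7929 bases for Bahcc1. Among 13809 genes tested with a coding length, 1.14% were longer than Tnrc18 and 1.19% longer than Bahcc1. The coding parts also shared a high content of G and C, at 62.2% in Tnrc18 and 62.4% in Bahcc1, against a median of 53.1% over genes tested. No exon base of Tnrc18 lay in an exon of another annotated gene, and 1.24% of those of Bahcc1 did, within the miRNA gene model Gm47297.

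The coding sequences are shown where they are most alike, because this is where a short read could be given to the wrong gene. The best local alignment of the transcripts covered 330 bases near the end of both coding parts, with 80.6% identical bases and no gap. Within it, the 90 bases with the most matches lie in exon 23 of the Tnrc18 transcript (chr5:142727919-142728008, minus strand) and exon 27 of the Bahcc1 transcript (chr11:120289377-120289466, plus strand), both coding. They are written 5′ to 3′ on the gene's strand, from GENCODE M21 transcripts, with the 78 bases that match in capitals.
Tnrc18: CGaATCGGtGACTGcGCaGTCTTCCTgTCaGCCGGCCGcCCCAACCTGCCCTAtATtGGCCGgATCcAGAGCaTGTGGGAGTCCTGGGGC
Bahcc1: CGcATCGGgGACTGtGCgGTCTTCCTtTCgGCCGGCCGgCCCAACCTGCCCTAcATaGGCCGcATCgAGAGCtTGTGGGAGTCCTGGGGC
The mismatches are spread along the stretch. The transcripts shared 3 distinct sequences of 20 bases, which may overlap, and 0 of 25 bases. Any read of at least 25 bases without errors thus differs between these transcripts. The read length was not given in the sources used here.

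The promoters are shown because both genes were high in the same libraries. Each is the 250 bases before the gene's RefSeq start in GRCm38.p6, written 5′ to 3′ on the gene's strand. Capitals mark the letters CCAAT or, for the other strand, ATTGG, the core of the CCAAT box that the factor NF-Y is known to bind. The Tnrc18 sequence is chr5:142817663-142817912 (minus strand) and the Bahcc1 sequence chr11:120232697-120232946 (plus strand).
Tnrc18: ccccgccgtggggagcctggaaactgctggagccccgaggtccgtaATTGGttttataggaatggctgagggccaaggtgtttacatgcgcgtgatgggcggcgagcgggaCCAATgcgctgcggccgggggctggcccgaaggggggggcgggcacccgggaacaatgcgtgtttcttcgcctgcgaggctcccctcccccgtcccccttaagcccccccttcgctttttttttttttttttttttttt
Bahcc1: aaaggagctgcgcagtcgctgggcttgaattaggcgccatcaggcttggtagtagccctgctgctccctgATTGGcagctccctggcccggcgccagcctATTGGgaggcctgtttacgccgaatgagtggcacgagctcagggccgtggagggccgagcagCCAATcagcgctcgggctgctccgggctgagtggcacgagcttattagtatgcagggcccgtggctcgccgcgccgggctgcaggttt
CCAAT on either strand occurred 2 times in the Tnrc18 window and 3 times in that of Bahcc1, with no overlapping matches. Of 32851 promoter windows of the same length, 33.8% held at least 1 match, 10.1% at least 2 and 2.79% at least 3. The GC box GGGCGG or CCGCCC was found 2 times in Tnrc18 and 0 times in Bahcc1, and it was held by 32.7% of all windows and by 55.3% of the windows of genes tested. CG occurred 20 times in Tnrc18 and 19 times in Bahcc1, against a median of 6 over all windows and 15 over the 14363 windows of genes tested. A match is a match of letters and no more.

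Tnrc18 was at 288, 565 and 943 CPM in IP 1, IP 2 and IP 3, against 34.5 CPM in the Input. These levels rest on 6608, 5284 and 10941 counts in IP and on 576 counts in the Input, with a 95% exact Poisson interval of 31.8 to 37.5 CPM for the Input, which covers counting error only. All 3 IP libraries lay above the Input, and the levels in IP differed 3.28-fold between the highest and the lowest. The mean in IP was 599 ± 329 CPM (SD, n = 3), and the edgeR log2 fold was 4.12 ± 0.63 (SE). By library, the ratio to the Input was 8.34 in IP 1 (95% counting interval 7.66 to 9.10), 16.4 in IP 2 (15 to 17.9) and 27.3 in IP 3 (25.1 to 29.7). In a bulk library, more cells with the transcript and more of it per cell cannot be told apart.

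Bahcc1 was at 140, 397 and 352 CPM in IP 1, IP 2 and IP 3, against 14.8 CPM in the Input. The counts were 3221, 3710 and 4082 in IP and 247 in the Input, where the interval was 13.0 to 16.8 CPM. The groups did not overlap here either, with IP 1 the lowest of the IP libraries by 2.51-fold against IP 3. The mean in IP was 296 ± 137 CPM (SD, n = 3), and the edgeR log2 fold was 4.32 ± 0.67 (SE). By library, the ratio to the Input was 9.48 in IP 1 (8.33 to 10.8), 26.8 in IP 2 (23.5 to 30.6) and 23.8 in IP 3 (20.9 to 27.1).

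These contrasts chose the genes, so they are given as a description with no test. All 3 IP libraries lay above the Input in 19.7% of the genes tested. Of all genes tested, 0.41% were called higher in IP (60 genes, edgeR quasi-likelihood test, Benjamini-Hochberg adjusted p under 0.05), both genes among them, and nothing is read from that. A further 0.0478% were called lower, and neither gene was among them. For reading the gene lists, 24.1% of genes tested lay under the Input in all 3 IP libraries, 4.43% had an unadjusted edgeR p under 0.05, 1.38% were called by DESeq2 and 0.348% by limma-voom. By size of log2 fold, Bahcc1 stood 174th and Tnrc18 188th of the 14636 genes.

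**Figure D1:**
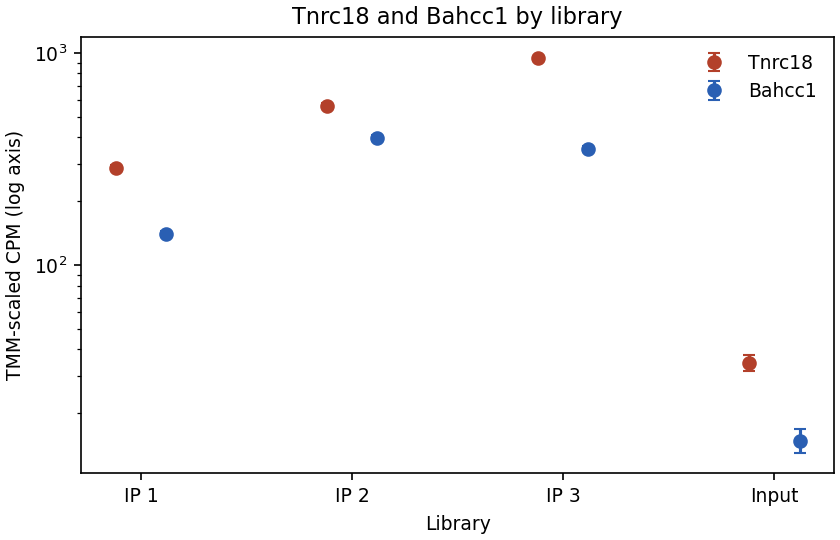
TMM-scaled CPM (log axis) of Tnrc18 and Bahcc1 in each of the 3 IP libraries and the Input, with 95% exact Poisson intervals that cover counting error only. Tnrc18 was at 288 to 943 CPM in IP and 34.5 CPM in the Input, and Bahcc1 at 140 to 397 CPM in IP and 14.8 CPM in the Input.

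The rank of both genes among all transcripts shifted between the fractions. Tnrc18 was above 95.1%, 98.0% and 99.2% of genes tested in IP 1, IP 2 and IP 3, and above 67.3% in the Input. Bahcc1 was above 88.5%, 96.6% and 96.2% in the IP libraries and above 48.5% in the Input. In the single Input library, then, Bahcc1 was near the middle of the genes tested, and Tnrc18 was in the upper part of the range. The order of levels for Tnrc18 was IP 3, IP 2, IP 1 and Input. For Bahcc1 it was IP 2, IP 3, IP 1 and Input, and IP 2 exceeded IP 3 by less than the SD over the IP libraries.

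The genes varied more between IP libraries than most. The SD of log2 CPM over the 3 IP libraries was 0.86 for Tnrc18 and 0.82 for Bahcc1, against a median of 0.58 over the 10553 genes with a mean of at least 5 CPM (with 0.5 CPM added for that median). A larger spread was seen for 30.1% of these genes beside Tnrc18 and 32.3% beside Bahcc1. Crh and Vip, which mark the captured cells, ran the other way, with Vip at 3802, 2253 and 2254 CPM in IP 1, IP 2 and IP 3 and 33.8 CPM in the Input. Thus the libraries with the most Crh and Vip and the libraries with the most Tnrc18 and Bahcc1 were different libraries.

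**Figure D2:**
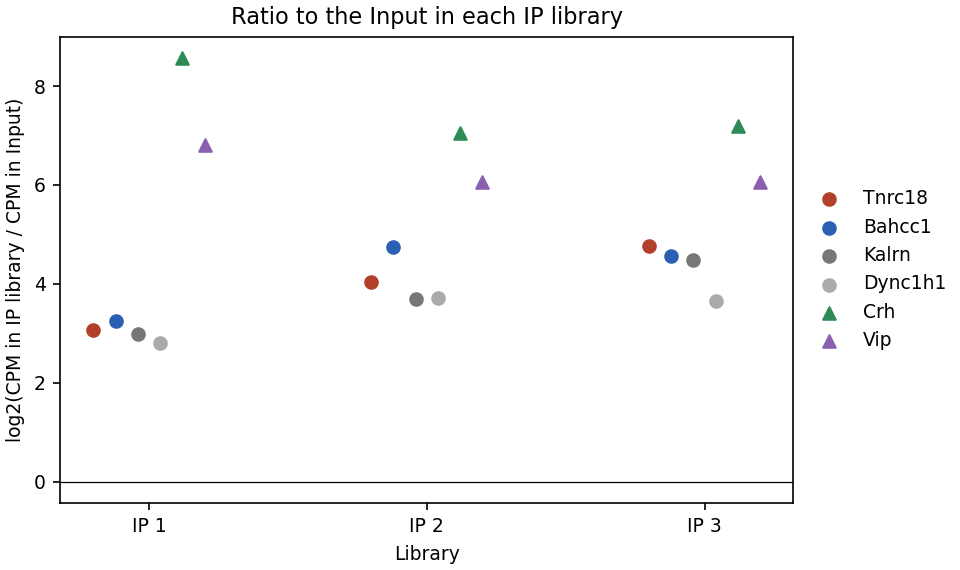
Log2 ratio of CPM to the Input in each IP library for Tnrc18, Bahcc1, the genes Kalrn and Dync1h1 with like profiles (circles), and Crh and Vip (triangles). Tnrc18 and Bahcc1 had log2 ratios of 3.06 and 3.24 in IP 1 and of 4.77 and 4.57 in IP 3, while Crh and Vip were highest in IP 1.

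The balance between the paralogs can be read within a library, free of depth and scaling. Tnrc18 took 67.2%, 58.8% and 72.8% of the counts of both genes in IP 1, IP 2 and IP 3, and 70.0% in the Input. The 95% exact binomial intervals were 66.3 to 68.2%, 57.7 to 59.8% and 72.1 to 73.5% in IP, and 66.7 to 73.1% in the Input. IP 2 lay below the other 3 libraries, and the intervals of IP 1 and IP 3 each overlapped that of the Input. The mean share in IP was 66.3 ± 7.1% (SD, n = 3), and its difference from the Input, -3.7 percentage points, was smaller than that SD. Per exon length, the level of Tnrc18 was 1.86, 1.29 and 2.43 times that of Bahcc1 in IP 1, IP 2 and IP 3, and 2.11 times in the Input. Tnrc18 was the more abundant paralog by this measure in all 4 libraries.

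**Figure D3:**
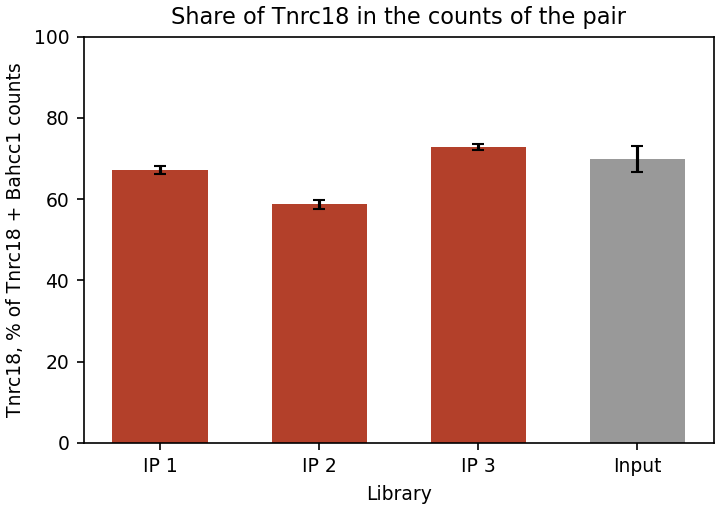
Tnrc18 as a percentage of the counts of Tnrc18 and Bahcc1 in each library, with 95% exact binomial intervals (counting error only). IP 2 was lowest at 58.8%, and IP 1, IP 3 and the Input lay between 67.2% and 72.8%.

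Genes with the most similar profile were found as the Euclidean distance between log2(CPM + 0.5) values over the 4 libraries, after subtracting each gene's mean, among the 10553 genes. For Tnrc18 the nearest were Kalrn at 0.26, Bahcc1 at 0.67, Dync1h1 at 0.84, Cldn1 at 0.88 and Pthlh at 0.92, against a median distance of 3.72. For Bahcc1 the nearest were Tnrc18 at 0.67, Dync1h1 at 0.80, Kalrn at 0.81, Ankrd55 at 0.83 and Pthlh at 0.93, against a median of 3.87. Each paralog was thus among the 2 nearest genes of the other, and 3 further genes were on both lists. This distance includes the contrast of IP and Input that chose both genes, so no support is drawn from their nearness. Over the 3 IP libraries alone their distance was 0.65, against medians of 1.46 from Tnrc18 and 1.41 from Bahcc1, and their ranks were lower. Bahcc1 then stood 795th from Tnrc18, and Tnrc18 stood 1065th from Bahcc1.

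Kalrn encodes kalirin, an exchange factor for Rac GTPases at synapses, and was at 5029, 8279 and 14325 CPM in IP 1, IP 2 and IP 3, against 638 CPM in the Input. Dync1h1 encodes the heavy chain of cytoplasmic dynein, the motor of retrograde axonal transport. Its level was 1912, 3562 and 3411 CPM in the IP libraries, against 273 CPM in the Input. Both were lowest in IP 1 among the IP libraries, as were Tnrc18 and Bahcc1. Pthlh, the gene of parathyroid hormone-related protein, was at 28.5, 35.0 and 38.3 CPM in IP and 1.92 CPM in the Input. Cldn1, a tight junction gene, was at 6.19, 20.9 and 25.9 CPM in IP and 1.32 CPM in the Input, and Ankrd55, which encodes a protein with ankyrin repeats, at 20.6, 40.2 and 34.9 CPM in IP and 2.58 CPM in the Input. The log2 folds of these 5 genes ran from 3.44 to 4.14, and as they were picked for their profile they are given with no test.

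The annotated coding length was examined next, since both paralogs are long. Leaving them out, 381 genes tested had a coding length of at least 6000 bases. Of these, 8 rose and 0 fell (2.10%, against 0.458% of all genes called in either direction). Against 19.7% of all genes tested, 53.8% of the long genes lay above the Input in all 3 IP libraries. Their median log2 fold was 0.71, against 0.41 for coding lengths from 4000 to 6000 bases, 0.14 from 2000 to 4000, 0.02 from 1000 to 2000 and 0.03 below 1000. The count of 8 was 52 without IP 1 and 20 with DESeq2. The fitted trend over length stood at a log2 fold of 0.67 at the length of Tnrc18 and 0.66 at that of Bahcc1. After its removal the log2 folds were 3.44 for Tnrc18 and 3.66 for Bahcc1, ranks 220 and 194 of 13809 genes. Among the 327 long genes with a mean of at least 5 CPM, Bahcc1 ranked 2 and Tnrc18 ranked 3 by log2 fold.

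The 8 long genes that rose were Kalrn (log2 fold 3.85), Dync1h1 (3.44), the spectrin genes Sptan1 (2.17) and Sptbn1 (1.98), the ankyrin genes Ank2 (1.92) and Ank3 (1.81), the cytoskeletal linker gene Dst (1.89) and the zinc finger gene Hivep2 (2.08), chosen for naming after their values were seen. Like Tnrc18 and Bahcc1, all 8 were lowest in IP 1 among the IP libraries. IP 1 was the lowest IP library for 64.8% of the 381 long genes, for 8 of the 50 genes called higher outside that class and the paralogs (16%), and for 33.0% of all genes tested. Among long genes with a coding GC content of at least 60%, as in Tnrc18 and Bahcc1, the median log2 fold was 0.95 (27 genes), against 0.66 from 50 to 60% (203 genes) and 0.67 below 50% (151 genes). In the same order, 51.9%, 46.8% and 63.6% lay above the Input in all 3 IP libraries, against 19.7% of all genes tested. All 8 that rose were in the class from 50 to 60%. From the highest GC class to the lowest, the median log2 ratio of IP 3 to IP 1 was 0.97, 0.61 and 0.19, and that of IP 2 to IP 1 was 0.67, 0.62 and 0.40. Over all genes tested with a coding GC content of at least 60%, both median ratios were 0.0. For Tnrc18 the log2 ratio was 1.71 for IP 3 and 0.97 for IP 2 over IP 1, and for Bahcc1 it was 1.32 and 1.5. The part of length and of base composition in the levels of the paralogs was not tested beyond the removal of the length trend.

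**Figure D4:**
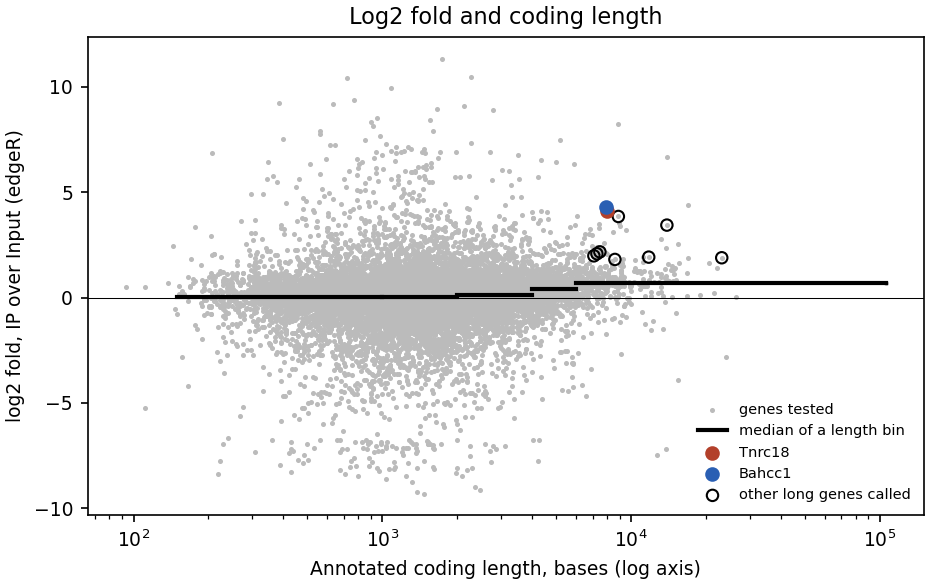
Log2 fold of IP over Input (edgeR) against annotated coding length (log axis) for each gene tested (grey points), with the median of each length bin (black lines), Tnrc18, Bahcc1 and the 8 other genes of at least 6000 coding bases that rose (open circles). The median was 0.71 in the longest bin, and Tnrc18 and Bahcc1 stood at 4.12 and 4.32.

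None of the other BAH-domain genes passed the test, which called 0.458% of all genes tested in either direction. In this list and the chromatin lists below, 0 calls is near that share and is not read as a result about the members. Of 9 tested, edgeR, DESeq2 and limma-voom each called 0, and 0 had an unadjusted edgeR p under 0.05. In all, 5 lay above the Input in all 3 IP libraries and 2 below, against 19.7% and 24.1% of all genes tested. Their median log2 fold was 0.48, which is 0.40 above that of all genes tested. A change of scaling moves all log2 folds by nearly the same amount, so it cannot test this difference. Ash1l, a histone methyltransferase gene, was the most abundant, at 872, 960 and 981 CPM in IP 1, IP 2 and IP 3, and 657 CPM in the Input (log2 fold 0.51 ± 0.34, SE). Rere, which encodes an atrophin-family corepressor, was at 332 ± 89.5 CPM in IP and 187 CPM in the Input (0.83 ± 0.45). Dnmt1, the maintenance DNA methyltransferase gene, was at 36.6, 53.1 and 107 CPM in IP and 31.8 CPM in the Input (1.04 ± 0.77), the highest log2 fold of the 9.

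Bahd1, whose human protein is also known to bind H3K27me3, was at 7.67, 15.6 and 41.5 CPM in IP and 20.7 CPM in the Input, so the groups overlapped (log2 fold 0.06 ± 1.05). Mta1, Mta2 and Mta3 encode subunits of the NuRD deacetylase complex, and their log2 folds were 0.48, -0.24 and 0.69. Pbrm1, a subunit gene of a chromatin remodeller, was at 131 ± 33.0 CPM in IP and 114 CPM in the Input. Orc1, of the DNA replication origin complex, had 3 to 37 counts in the IP libraries and 34 counts in the Input.

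The writers of H3K27me3 were also not called, which is again near the share over all genes tested. Of 11 tested genes of Polycomb repressive complex 2 (Phf19 was too low to test), 0 passed (0 by DESeq2 and limma-voom, 1 at an unadjusted p under 0.05). In all 3 IP libraries 4 lay above the Input and 4 below, against 19.7% and 24.1% of all genes tested. The methyltransferase gene Ezh1, the paralog of Ezh2 known from resting cells, was at 124 ± 17.6 CPM in IP and 53.0 CPM in the Input (log2 fold 1.23 ± 0.57), and the core subunit gene Suz12 at 110, 130 and 122 CPM in IP and 65.0 CPM in the Input (0.89 ± 0.55). Of 20 genes of Polycomb repressive complex 1, 0 passed by any of these tools and 1 at an unadjusted p. Phc3 was at 173 ± 39.1 CPM in IP and 149 CPM in the Input, and Yaf2 at 152 ± 47.4 and 190 CPM. Cbx2, chosen after its values were seen, had the highest fold of that list, at 1.09, 11.7 and 8.28 CPM in IP and 0.540 CPM in the Input, on 9 counts in the Input.

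Corepressor genes of the SIN3 and NCoR families with their deacetylases, known partners of the BAH readers, gave 0 calls of 20 tested (Brms1 was too low to test; 0 by DESeq2 and limma-voom, 2 at an unadjusted p), with a median log2 fold of 0.11. Ncor1 was at 928 ± 266 CPM in IP and 507 CPM in the Input (log2 fold 0.87 ± 0.39).

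For the residue H3K9, 15 genes of its methyltransferases, of HP1 proteins and of the HUSH silencing complex gave 0 calls (0 by DESeq2 and limma-voom, 0 at an unadjusted p), with a median of 0.16. Cbx5, the gene of HP1 alpha, was at 586 ± 63.4 CPM in IP and 478 CPM in the Input, and Pphln1 at 138 ± 36.5 and 121 CPM. Of 10 genes for demethylases of the residues H3K9 or H3K27, 0 were called (0 by DESeq2 and limma-voom, 1 at an unadjusted p). Jmjd1c was at 339, 692 and 493 CPM in IP and 227 CPM in the Input (log2 fold 1.16 ± 0.45) and was called without IP 1, and Kdm7a was at 157 ± 42.1 and 164 CPM. The medians of the 5 lists other than BAH genes lay 0.02 to 0.13 above the median of all genes, a difference that scaling again leaves nearly fixed. The median of all genes itself was 0.08 with TMM and -0.19 with library totals, where all 5 list medians fell below 0.

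**Figure D5:**
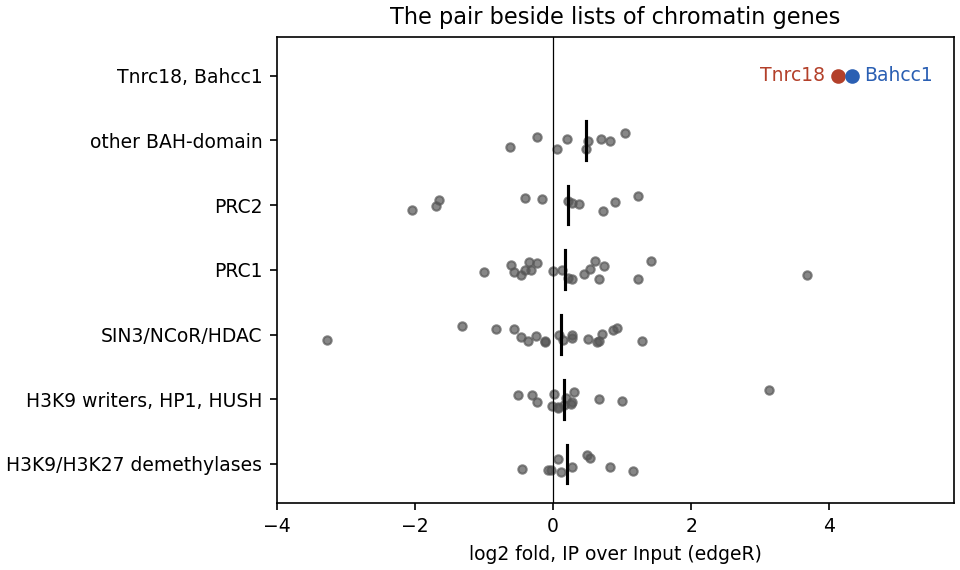
Log2 fold of IP over Input (edgeR) for Tnrc18 and Bahcc1 (top row) and for each tested member of 6 lists of chromatin genes (points, black bar at the list median). Tnrc18 and Bahcc1 stood at 4.12 and 4.32, and the list medians lay between 0.11 and 0.48.

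The levels of the genes next to the paralogs on the chromosome are given as a description. Beside Tnrc18, the transporter gene Slc29a4, which ends 2171 bases away on the other strand, was at 5.58, 3.21 and 2.59 CPM in IP and 2.94 CPM in the Input. The autophagy gene Wipi2 was at 64.6 ± 18.9 CPM in IP and 49.8 CPM in the Input, Fbxl18 at 21.4 ± 18.4 and 12.2 CPM, and the beta-actin gene Actb at 655 ± 45.0 and 786 CPM. Beside Bahcc1, the gamma-actin gene Actg1 was at 121 ± 22.8 CPM in IP and 160 CPM in the Input, Slc38a10 at 18.6 ± 13.8 and 14.7 CPM, and the noncoding gene 2810410L24Rik at 1.05, 0 and 2.76 CPM in IP and 0.360 CPM in the Input. The miRNA gene Mir6935, inside Actg1, was listed at 0 counts in all libraries. None of the 7 neighbours tested was called by edgeR, which called 0.458% of all genes tested, so nothing is read from that. Their log2 folds ran from -0.41 to 1.80, with an SE of up to 3.4 (2810410L24Rik). A regional difference was not tested.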

How the data were processed

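Raw counts of reads by gene, as deposited by the authors, came as 1 table per library with an Entrez identifier and a symbol. The submitters' processing notes name STAR 2.0.0e, HTSeq and build mm10, but the names of the deposited tables carry the word subread, so which program counted the reads is not settled; nothing used here states the annotation, the strand or the handling of multiply mapped reads. In R 4.3.3, filterByExpr of edgeR 4.0.16 (minimum count 10) kept 14636 of 24100 genes; the 9 rows without a symbol took at most 0.0221% of a library. IP was compared with Input by the two-sided quasi-likelihood F test after TMM scaling, Benjamini-Hochberg over all genes kept; SE is the fold over the square root of F. The lone Input was assumed to vary like the IP libraries (2 residual degrees of freedom, prior 17). A single count was worth 0.0436, 0.107 and 0.0862 CPM in IP 1, IP 2 and IP 3, and 0.0600 CPM in the Input. On simulated data with the spread of these libraries the fit called few of the genes made to differ, and with a small spread all of them, so a gene not called is not shown to be alike in both fractions. Alternatives used DESeq2 1.42.0 and limma 3.58.1 (voom). GENCODE M21 (GRCm38) gave positions and lengths, and BLAST 2.17.0 the alignment. The trend over coding length was a lowess fit with a fraction of 0.3.

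The members and lists were chosen with earlier results of these data known. Tasor was matched through its older symbol Fam208a. The class of coding lengths was chosen after the reference was seen. Named by rule were, for each paralog, the 5 genes of nearest profile, up to 4 called and 2 abundant other members of each list (all BAH genes), the 2 nearest genes on each side, and Crh and Vip; for marker lists the text gives sums and counts, with single genes left to the counts. Some genes that the rule names are not reported here.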

Additional observations from a re-analysis of the deposited data

How the results depend on the processing

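The log2 folds of Tnrc18 and Bahcc1 kept their direction in all 10 alternative fits and after removal of the length trend, each time moving by less than the SD over the IP libraries. They ran from 3.63 to 4.43 for Tnrc18 and from 4.03 to 4.64 for Bahcc1 in the fits, lowest without IP 3 for Tnrc18 and with limma-voom for Bahcc1. Limma-voom was the 1 of 11 fits whose threshold neither gene passed. As this contrast chose the genes, nothing is read from their passing a threshold in any fit. The mean share of Tnrc18 in the pair was 63.0 to 70.0% when single IP libraries were left out. Genes called were 67, and 108 without a low-count filter, 182 with DESeq2, and 90 to 210 with single IP libraries left out (210 without IP 1, 105 without IP 2); the higher calls were 89.6% of 67, but 77.3% with upper-quartile factors, 76.9% with library totals and 72.5% with limma-voom. With single libraries left out, calls ran from 0 to 1 for SIN3 and NCoR genes and for demethylases (Jmjd1c), and from 0 to 3 for vascular markers (Flt1, Slc2a1 and Rgs5), which also gave 2 with DESeq2 and 2 without a low-count filter. For coding lengths of at least 6000 bases, a class set after the reference was seen, calls were 8 to 52 with libraries left out and 20 with DESeq2, against 8. The planned class of proteins of 2000 residues was not run, since no protein table was used here. The causes were not tested. No paired analysis was possible because the Input carries no replicate number and is a single library. With 1 Input, no spread could be measured there, and 247 and 576 counts set its precision.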

Other observations

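Of the 327 genes with a coding length of at least 6000 bases and a mean of at least 5 CPM, 2 others among the 6 highest log2 folds rested on few counts in the Input, and were picked after their values were seen. Hmcn1, which encodes a matrix protein, was at 0.305, 10.2 and 12.6 CPM in IP 1, IP 2 and IP 3 and 0.360 CPM in the Input, on 7 to 146 counts in IP and 6 in the Input, and its groups overlapped. The helicase gene Helz2 was at 2.96, 0.107 and 17.8 CPM in IP and 0.600 CPM in the Input, and its groups overlapped too. By edgeR, neither was called.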
